A study of Arabidopsis thaliana with 57 samples.

Results

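The genes described here are 31 Arabidopsis thaliana genes for the enzymes, and 1 transport-related glutathione transferase, that turn phenylalanine into flavonols and anthocyanins, taken by locus identifier from the 28775 genes of the expression table. They comprise 9 genes of general phenylpropanoid metabolism, 5 of early flavonoid synthesis, 7 of the flavonol branch and 10 of the anthocyanin branch. Of the 31 genes, 29 had a mean level high enough to be tested, among 19010 genes tested in all; F3H and UGT78D3 did not.

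RNA sequencing was done on rosette leaves of 18-day-old wild-type plants of the accession Col0 (Columbia), all harvested 6 hours after the lights came on. In the end-point groups the stress began on day 15 and the plants were harvested under it. In the recovery groups the stress began on day 12, lasted 3 days and was followed by 3 days under standard conditions. Each of the 17 groups had 3 libraries, and the study asked how far stress-induced changes in transcript levels are reversed after the stress ends.

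Light intensities are in µmol m-2 s-1. Under standard conditions plants had 12 hours of light at 22 °C and an intensity of 120, and nights at 18 °C. Cold plants had days at 12 °C, nights at 8 °C and an intensity of 80, and Cold-HL plants (cold with high light) had those temperatures and an intensity of 200. Drought plants were given too little water. Heat plants had days at 27 °C and nights at 23 °C, Heat-drought plants combined heat with the shortage of water, and Heat-HL plants combined heat with an intensity of 350. HL (high light) plants received that intensity at standard temperatures, and Humidity plants stood in sealed trays with an excess of water. The single control group, unstressed plants run alongside the recovery groups, served every comparison with control, so those comparisons share 3 libraries. The labels do not say how many plants made up a library or whether replicates came from separate cultures, so each p-value reflects the spread among these libraries, which may be technical.

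Phenylpropanoid metabolism deaminates phenylalanine to cinnamate and activates it as coumaroyl-CoA, the shared precursor of lignin, sinapate esters and flavonoids. Chalcone synthase draws coumaroyl-CoA into the flavonoid pathway, which then divides into colourless flavonol glycosides, known as ultraviolet screens of the leaf epidermis, and red to purple anthocyanins stored in the vacuole. In vegetative tissue the late anthocyanin genes are known to be controlled by complexes of MYB, bHLH and WD40 proteins, and the early and flavonol genes by a separate group of MYB factors.

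The 250 bases upstream of the annotated start are shown for 3 genes whose levels moved differently. TT4 encodes chalcone synthase, DFR encodes dihydroflavonol reductase, the first enzyme committed to anthocyanins, and 4CL3 encodes the coumarate-CoA ligase known for its part in flavonoid synthesis. The sequences are from RefSeq (TAIR10.1), written 5′ to 3′ on the gene's strand, and lie at chr5:4488226-4488475 (plus strand, TT4), chr5:17166033-17166282 (minus strand, DFR) and chr1:24171636-24171885 (minus strand, 4CL3). Capitals mark a CACGTG (the G-box) in TT4 and DFR and the MYB-type motif ACCTACC in 4CL3.
TT4: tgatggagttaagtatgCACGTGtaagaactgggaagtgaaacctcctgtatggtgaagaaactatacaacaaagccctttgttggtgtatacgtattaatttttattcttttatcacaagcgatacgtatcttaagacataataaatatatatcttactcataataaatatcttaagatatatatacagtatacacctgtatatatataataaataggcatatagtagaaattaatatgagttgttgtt
DFR: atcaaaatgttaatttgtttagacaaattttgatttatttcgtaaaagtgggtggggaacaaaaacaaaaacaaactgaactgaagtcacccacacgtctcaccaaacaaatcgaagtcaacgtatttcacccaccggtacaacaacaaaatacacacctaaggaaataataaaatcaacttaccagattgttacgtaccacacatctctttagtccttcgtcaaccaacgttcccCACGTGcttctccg
4CL3: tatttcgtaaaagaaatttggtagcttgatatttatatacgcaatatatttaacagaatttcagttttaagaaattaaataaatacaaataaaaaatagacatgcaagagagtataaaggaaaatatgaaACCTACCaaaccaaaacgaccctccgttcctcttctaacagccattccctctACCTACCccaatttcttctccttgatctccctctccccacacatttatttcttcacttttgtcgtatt

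Searched on both strands, CACGTG was found in the 250-base window of 7 of 31 genes (22.6%), against 6.5% of 27437 annotated promoters. The 7 genes were PAL4, TT4, CHIL, F3H, DFR, UGT79B1 and SAT. By pathway step these were 1 of 9 general, 3 of 5 early, 0 of 7 flavonol and 3 of 10 anthocyanin genes. Its core ACGT, which every CACGTG contains, was present in 16 of 31 windows (51.6%) against 44.1% of all promoters. ACCTACC was found in 3 of 31 (9.7%, against 1.2%) and ACCAACC in 3 of 31 (9.7%, against 2.7%). These are matches of letters in a fixed window, given as a description.

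The deposited values were regularized log2 counts (rlog), and the levels below are rlog values minus the median of the same library over the genes tested, in log2 units. The transformation pulls weakly expressed genes towards their mean over the libraries, so differences of low genes are understated. Group medians of the deposited values were 0.73 (Heat-drought), 0.54 (Drought), 0.51 (Cold-HL) and 0.34 (Cold) above control at the end-point and at most 0.13 above control in the other groups. A difference of that size or less can therefore change sign in the values as deposited.

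The rosette label was checked against marker genes: 5 photosynthesis genes had rlog levels of 13.4 to 19.0, whereas 4 root markers did not exceed 0.58, 4 seed storage genes did not exceed 2.18 and 4 flower identity genes lay between -0.41 and 4.27. Replicate 2 of Cold-HL recovery stood apart, with a summed leaf marker level of 8.35 on the log2 scale against 9.15 to 11.67 in the other 50 libraries. The leaf marker sum was also lower in Heat-drought (9.15 to 9.96) and Drought (9.95 to 10.66) end-point leaves than in control leaves (11.45 to 11.50). The epidermis marker sum was 5.72 to 5.85 in Heat-drought, 5.62 to 5.64 in Drought and 5.42 to 5.47 in control leaves. It was also above control in Humidity (5.66 to 5.71) and below it in Cold-HL (5.14 to 5.21) and Cold (5.24 to 5.30). The sum is taken on unlogged levels, so abundant genes weigh most, and the single epidermis genes did not all follow it. Of the 5 genes, 1 was called higher and 3 lower by limma in Heat-drought (median difference -0.46), and likewise in Drought (-0.38). The part of these marker differences in the results below was not tested, and in whole leaves fewer cells of a type and less RNA per cell cannot be told apart.

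F3H, the flavanone hydroxylase gene of the early pathway (chromosome 3, 19025192 to 19026872, plus strand), was listed at rlog -1.72 to -1.68 in all 51 libraries. In the RefSeq annotation 93.8% of its exon bases also lie in an antisense long noncoding RNA locus, which was itself at -2.17 to -2.16, while the flanking genes AT3G51230 and AT3G51250 were at 5.19 to 6.26 and 8.76 to 10.56. The files do not state the strand setting of the counting, and F3H is not described further. UGT78D3, a flavonol arabinosyltransferase gene, stayed between 0.97 and 1.29. Of the genes tested, UGT89C1 shares 99.6% of its exon bases with an antisense locus listed at 0 in all libraries, UGT75C1 shares 14% and 13.2% with a pair of opposite-strand loci, and TT19 shares 9.9% with the neighbouring PSY gene. Levels of these 3 genes are uncertain to that extent.

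At the end-point, cold, cold with high light and drought raised most of the pathway. Heat with drought gave calls in both directions after centring, in total no more often than over all genes. Humidity lowered the anthocyanin branch, and heat or high light alone gave few calls. Calls are from limma's moderated test fitted over all groups, with Benjamini-Hochberg adjusted p at or below 0.05 over all genes tested. In Cold-HL leaves 23 of 29 genes were higher and 3 lower than in control, with a median difference of 1.46 against -0.05 over all genes, of which 52.7% passed (23.3% higher, 29.4% lower). In Drought leaves 22 were higher and 4 lower, or 2 lower without Drought replicate 3 (median 1.01; all genes -0.13, 67.5% passed, 25.3% higher and 42.2% lower). In Cold leaves 19 were higher and 2 lower (median 0.59; all genes -0.04, 39.9% passed, 18.3% higher and 21.7% lower).

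In Heat-drought leaves 12 were higher and 8 lower, with a median of 0.18, against -0.15 over all genes, where 78.6% passed (32.2% higher and 46.5% lower). In Humidity leaves 3 were higher and 11 lower (median -0.31; all genes -0.01, 5.89% passed, 3.58% higher and 2.31% lower). In HL leaves 2 were higher and none lower (1.09% of all genes passed), falling to 0 without HL replicate 3 or control replicate 2 or 3. In Heat leaves 1 was lower and none higher (0.8% passed, 0.431% lower). At an unadjusted p under 0.05 by limma there were 16 of 29 genes in HL and 9 in Heat. The share of all genes at that unadjusted threshold is not available here. These counts and the unadjusted counts below therefore have no background beside them. The libraries of 18 genes in HL and 17 in Heat lay wholly above or wholly below control. Over all genes 11.4% lay above and 14.6% below in HL, and 9.16% and 17.6% in Heat. In Heat-HL leaves 0 of 29 passed by limma, with 6 at an unadjusted p under 0.05 (0.242% of all genes passed, 0.0842% lower). Without centring, in the values as deposited, the splits into higher and lower were 26 and 0 in Cold-HL, 26 and 0 in Drought, 21 and 3 in Heat-drought and 9 and 0 in HL. Many genes outside the pathway were then higher too: 44.1% of all genes were called higher in both Cold-HL and Drought, against 4.7% after centring.

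**Figure D1:**
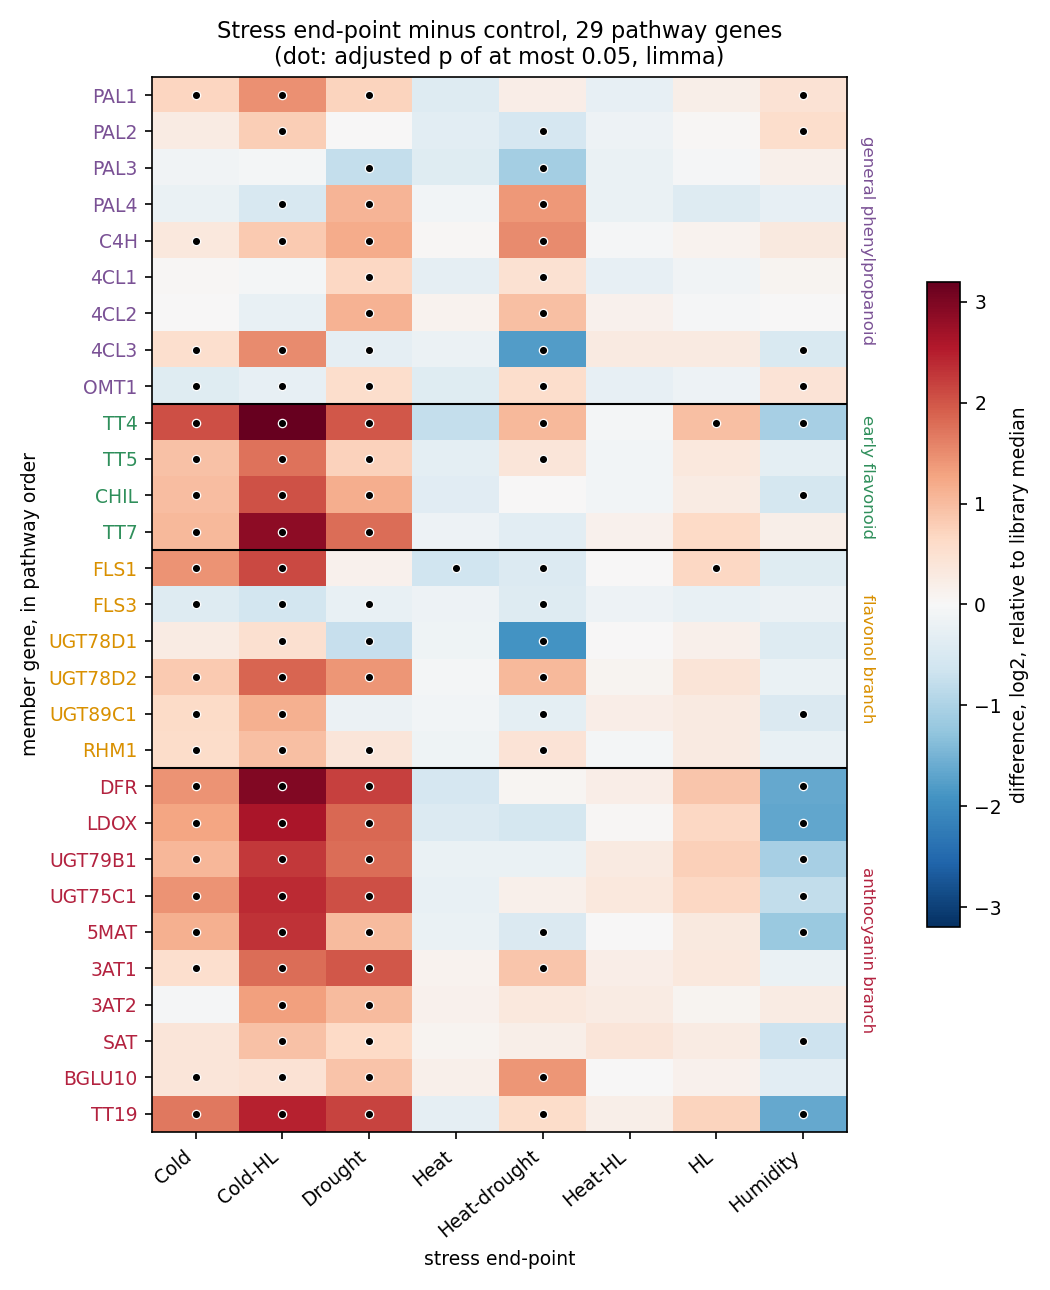
Heat map of the end-point difference from control in log2 units for the 29 genes tested (down the page, by pathway step) in 8 stresses (across), where a dot marks an adjusted p at or below 0.05. Cold-HL has 23 dots for higher genes and Humidity 11 for lower ones; without centring on library medians the lower calls of PAL4 and OMT1 in Cold-HL, 4CL3 and FLS3 in Drought, and PAL2, FLS1, FLS3, UGT89C1 and 5MAT in Heat-drought change sign.

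Among the general phenylpropanoid genes, the stresses used different members of each small family. PAL1 to PAL4 encode phenylalanine ammonia-lyases, the entry enzymes. PAL1 was at 4.16, 3.82 and 4.12 in Cold-HL leaves, 3.32, 3.36 and 3.08 in Cold leaves, 3.37, 3.15 and 3.30 in Drought leaves and 2.91, 2.96 and 3.23 in Humidity leaves, against 2.57, 2.58 and 2.56 in control leaves. None of those 4 groups overlapped the control. PAL1 was 1.46 ± 0.12 higher in Cold-HL, 0.71 in Drought, 0.69 in Cold and 0.47 in Humidity (± standard error, which was the same in each; adjusted p 4.15e-13, 1.08e-06, 9.64e-06 and 0.00849 by limma).

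PAL4 (AT3G10340) followed another pattern. It was at 0.67, 0.95 and 0.91 in Heat-drought leaves and 0.47, 0.42 and 0.76 in Drought leaves, against -0.60, -0.52 and -0.50 in control leaves. The difference was 1.38 ± 0.13 in Heat-drought and 1.10 ± 0.13 in Drought (adjusted p 3e-12 and 3.17e-09 by limma). In Cold-HL leaves PAL4 lay between -1.27 and -0.88, below all controls, a difference of -0.51 ± 0.13 that became 0.01 in the values as deposited. PAL3 was lower in Heat-drought (-1.09) and Drought (-0.76, which was -0.22 and not called in the values as deposited). PAL2 was higher in Cold-HL (0.79) and Humidity (0.55) but lower in Heat-drought (-0.53), the last becoming 0.21 in the values as deposited.

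C4H, cinnamate hydroxylase and the only gene for its step, was 1.51 ± 0.10 higher in Heat-drought leaves (2.85-fold, adjusted p 4.11e-17 by limma), 1.18 in Drought, 0.83 in Cold-HL and 0.35 in Cold. It had levels of 4.02, 4.26 and 4.27 in Heat-drought leaves against 2.66, 2.63 and 2.72 in control leaves. The coumarate-CoA ligase genes divided. 4CL1 and 4CL2, whose enzymes are known mainly for supplying lignin, rose by 0.66 and 1.12 in Drought and by 0.49 and 0.95 in Heat-drought, and did not pass in Cold or Cold-HL.

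4CL3 (AT1G65060; chromosome 1, 24167202 to 24171635, minus strand) moved the other way. It was at 1.33, 1.15 and 1.33 in Cold-HL leaves and 0.28, 0.35 and 0.25 in Cold leaves, but at -0.47, -0.58 and -0.57 in Drought leaves and -1.74, -2.18 and -2.21 in Heat-drought leaves, against -0.26, -0.23 and -0.26 in control leaves. These groups did not overlap the control in either direction. The difference of 4CL3 was 1.52 ± 0.12 in Cold-HL (2.87-fold higher, adjusted p 7.03e-13) and -1.79 ± 0.12 in Heat-drought (3.46-fold lower, adjusted p 1.73e-16), both by limma with Benjamini-Hochberg adjustment. Its drop of -0.29 in Drought (adjusted p 0.0356 by limma) became 0.25 in the values as deposited and lost its call without Drought replicate 2 or 3 or any of the control libraries.

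OMT1, a methyltransferase acting on lignin precursors and on quercetin, was higher in Drought (0.57), Heat-drought (0.55) and Humidity (0.44). It was lower in Cold (-0.38) and Cold-HL (-0.26). As deposited, these became -0.04, not called, and 0.25, and the Cold-HL call was lost without any 1 of the 6 libraries compared. In all, 6 of the 9 general genes were higher and 2 lower in Drought, 5 and 3 in Heat-drought, 4 and 2 in Cold-HL, 3 and 1 in Cold and 3 and 1 in Humidity.

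The 4 early flavonoid genes tested were higher in Cold, Cold-HL and Drought without exception. TT4 (AT5G13930), encoding chalcone synthase (chromosome 5, 4488476 to 4490264, plus strand), was at 5.63, 5.26 and 5.68 in Cold-HL leaves, 4.51, 4.43 and 4.30 in Cold leaves and 4.35, 4.06 and 4.58 in Drought leaves, against 2.30, 2.35 and 2.39 in control leaves. It was at 3.38, 3.39 and 3.40 in Heat-drought leaves, 2.99, 3.06 and 3.86 in HL leaves, 1.62, 1.36 and 1.76 in Heat leaves and 1.46, 1.36 and 1.03 in Humidity leaves. The libraries of each of these groups fell wholly above or wholly below the control libraries.

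The difference of TT4 from control was 3.18 ± 0.22 in Cold-HL (9.04-fold, adjusted p 1.88e-13), 1.98 ± 0.22 in Drought, 1.04 ± 0.22 in Heat-drought and -1.07 ± 0.22 in Humidity (adjusted p 0.00205), all by limma. In HL the 0.95 of TT4 passed at an adjusted p of 0.0256, but not with HL replicate 3 left out (0.67, adjusted p 0.172), nor without control replicate 2 or 3, nor in a fit of HL and control leaves alone with the replicate number as a block (adjusted p 0.118).

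TT5, chalcone isomerase, and CHIL, a noncatalytic relative known to make chalcone synthase more specific, had smaller differences in the same 3 stresses. TT5 was 1.73 ± 0.11 higher in Cold-HL, 0.93 in Cold, 0.74 in Drought and 0.39 in Heat-drought. CHIL was 2.05 ± 0.16 higher in Cold-HL, 1.17 in Drought and 0.98 in Cold, and was 0.02 in Heat-drought and -0.56 in Humidity (adjusted p 0.0261 by limma, lost without Humidity replicate 2 or 3 or any control library).

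TT7 (AT5G07990), the hydroxylase that turns kaempferol-type into quercetin-type precursors, was at 1.72, 0.84 and 1.56 in Cold-HL leaves, 0.12, 0.23 and 0.58 in Drought leaves and -0.25, -0.26 and -0.80 in Cold leaves, against -1.50, -1.51 and -1.44 in control leaves. All of these libraries lay above the controls. The 2.86 ± 0.28 of TT7 in Cold-HL was a 7.24-fold difference (adjusted p 2.33e-10 by limma), and those in Drought and Cold were 1.79 and 1.04. Heat-drought leaves, at -1.42, -1.91 and -2.12, overlapped the control for TT7.

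**Figure D2:**
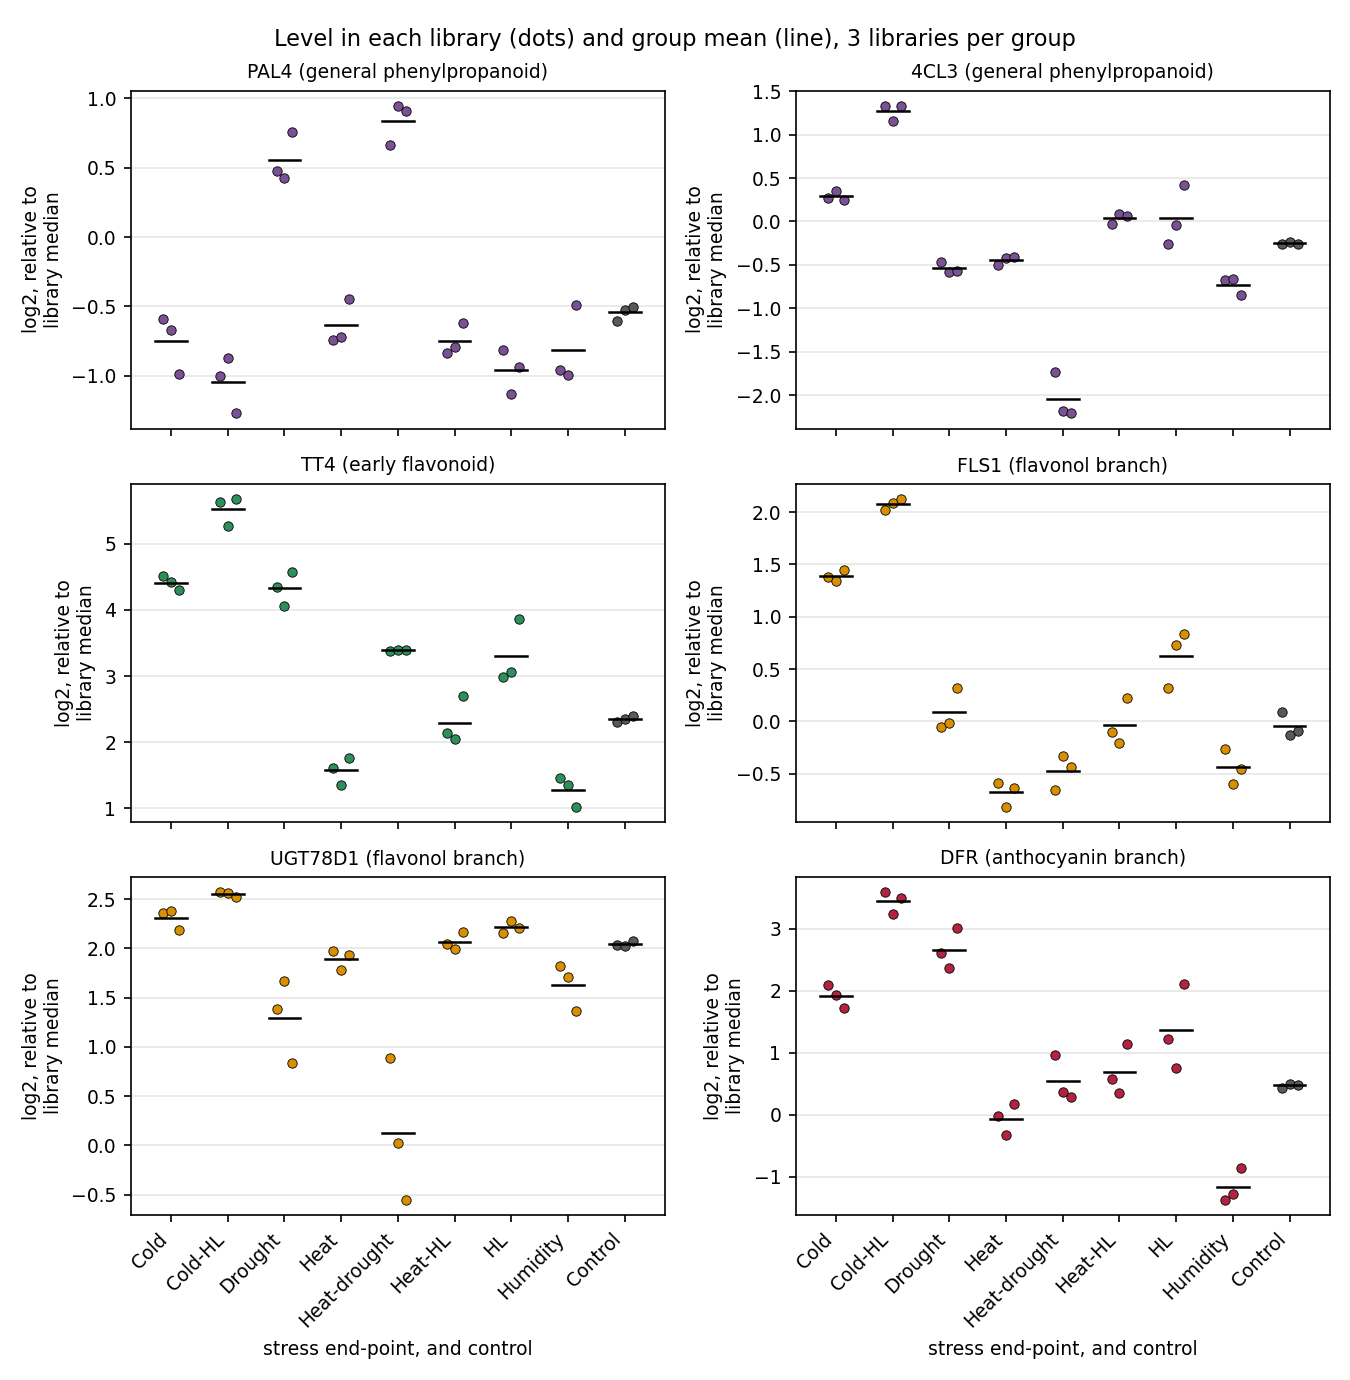
Level relative to the library median (log2 units, vertical axis) of PAL4, 4CL3, TT4, FLS1, UGT78D1 and DFR, where each dot is a library, the line is the group mean and the control group is at the right of each panel. TT4, FLS1 and DFR peak in Cold-HL end-point leaves, PAL4 in Heat-drought, and 4CL3 and UGT78D1 reach their lowest levels in Heat-drought.

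In the flavonol branch the cold treatments raised the synthase and most of the glycosylation genes, whereas drought, after centring, raised only UGT78D2 and RHM1. FLS1 (AT5G08640), the main flavonol synthase, was at 2.02, 2.09 and 2.13 in Cold-HL leaves and 1.38, 1.34 and 1.45 in Cold leaves, against 0.09, -0.13 and -0.09 in control leaves. The differences were 2.12 ± 0.14 (4.35-fold, adjusted p 8.17e-15 by limma) and 1.44. In Drought leaves FLS1 was at -0.05, -0.01 and 0.32, overlapping the controls, a difference of 0.13 (adjusted p 0.427 by limma). It was the gene called in Heat, at -0.59, -0.82 and -0.64 (difference -0.64, adjusted p 0.0231), and it was higher in HL (0.67, adjusted p 0.0106), both by limma. In Heat-drought FLS1 was called lower at -0.43, which became 0.30 in the values as deposited.

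The Heat and HL calls of FLS1 were less stable: that in Heat was lost without Heat replicate 1 or 2 or any control library, and that in HL without HL replicate 2 or 3 or control replicate 2 or 3. The Heat difference of FLS1 in the values as deposited was -0.55 and was not called. Blocking on the replicate number left both calls in place. With that block PAL3 also passed in Heat (-0.40, adjusted p 0.0396 by limma), and a blocked fit of Heat and control leaves alone called 11 of 29 genes lower, against 5.78% of all genes, among them PAL1, TT4 and DFR.

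UGT78D1 (AT1G30530), a flavonol rhamnosyltransferase, was at 0.89, 0.03 and -0.55 in Heat-drought leaves and 1.38, 1.67 and 0.84 in Drought leaves, against 2.04, 2.02 and 2.07 in control leaves. The differences were -1.92 ± 0.19 (3.79-fold lower, adjusted p 1.79e-11) and -0.75 (adjusted p 0.000748), both by limma, and the Heat-drought libraries spread more widely than the controls. In Cold-HL leaves UGT78D1 was 0.51 higher. UGT78D2, a glucosyltransferase acting on both flavonols and anthocyanidins, was at 2.70, 2.47 and 2.76 in Cold-HL leaves, 2.23, 1.96 and 2.40 in Drought leaves and 1.81, 1.74 and 1.90 in Heat-drought leaves, against 0.75, 0.82 and 0.76 in control leaves. Its differences there were 1.87 ± 0.13, 1.42 and 1.04, so the glucosyl- and rhamnosyltransferase genes moved in opposite directions in Drought and Heat-drought. Without centring UGT78D1 was still lower in Heat-drought (-1.19), but in Drought it was at -0.21 and did not pass.

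UGT89C1, which adds a further rhamnose to flavonols, was higher in Cold-HL (1.13) and Cold (0.61) and lower in Humidity (-0.46, not called without Humidity replicate 3). Its call of -0.32 in Heat-drought became 0.42 in the values as deposited. RHM1, which makes the UDP-rhamnose these enzymes use, was higher in Cold-HL (0.95), Cold (0.59), Heat-drought (0.45) and Drought (0.40). FLS3, a minor relative of FLS1 was at -3.38, -3.30 and -3.25 in control leaves and was called lower in Cold-HL (-0.58), Cold (-0.42), Heat-drought (-0.42) and Drought (-0.24), but in the values as deposited these became -0.07 and -0.07, neither called, and 0.32 and 0.30.

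In the anthocyanin branch all 10 genes were higher in Cold-HL and in Drought, 8 in Cold, 3 in Heat-drought and 0 in Humidity, HL, Heat and Heat-HL. DFR (AT5G42800; chromosome 5, 17164093 to 17166032, minus strand) was at 3.59, 3.24 and 3.51 in Cold-HL leaves, 2.61, 2.38 and 3.01 in Drought leaves and 2.10, 1.93 and 1.72 in Cold leaves, against 0.44, 0.50 and 0.49 in control leaves. It was at -1.37, -1.28 and -0.85 in Humidity leaves. Group means of DFR spanned 4.61 log2 units over the 17 groups, the widest range of the 29 genes.

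DFR was 2.97 ± 0.30 higher in Cold-HL (7.82-fold, adjusted p 7.09e-10), 2.19 ± 0.30 in Drought (4.55-fold) and 1.64 lower in Humidity (difference -1.64 ± 0.30, 3.12-fold, adjusted p 0.000505), by limma. LDOX (AT4G22880), the anthocyanidin synthase that follows DFR, was at 3.21, 2.82 and 3.30 in Cold-HL leaves, 2.41, 2.20 and 2.43 in Drought leaves and -1.04, -1.17 and -1.22 in Humidity leaves, against 0.52, 0.59 and 0.42 in control leaves. Its differences were 2.60 ± 0.27, 1.84 and -1.65. TT19 (AT5G17220), the glutathione transferase needed for anthocyanins to reach the vacuole, was at 2.52, 2.24 and 2.46 in Cold-HL leaves and -1.47, -1.86 and -1.74 in Humidity leaves, against -0.03, 0.03 and -0.15 in control leaves. For each of these 3 genes the groups named did not overlap the control.

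The decorating enzymes were less uniform. UGT75C1, an anthocyanin glucosyltransferase, was 2.38 ± 0.22 higher in Cold-HL, 2.06 in Drought and 1.44 in Cold, and UGT79B1, a xylosyltransferase, 2.26, 1.79 and 1.05. The malonyltransferase gene 5MAT was 2.30 higher in Cold-HL and 1.01 in Drought, and the coumaroyltransferase gene 3AT1 1.79 and 1.98. The related 3AT2 rose in Cold-HL (1.30) and Drought (1.02) and was -0.04 in Cold. SAT, a sinapoyltransferase, rose by 0.94 and 0.63 and had 0.38 in Cold (adjusted p 0.0562 by limma).

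BGLU10, an acyl-glucose-dependent anthocyanin glucosyltransferase, had its largest difference in Heat-drought (1.41 ± 0.12, adjusted p 6.11e-14 by limma), followed by Drought (0.90), Cold-HL (0.47) and Cold (0.38). The other anthocyanin genes called in Heat-drought were 3AT1 (0.88) and TT19 (0.58), both higher, and 5MAT (-0.46, adjusted p 0.0319), which became 0.28 in the values as deposited and lost its call without Heat-drought replicate 2 or 3 or control replicate 1 or 3.

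Humidity lowered 7 of the 10 anthocyanin genes, which were DFR, LDOX, TT19, 5MAT (-1.18), UGT79B1 (-1.07), UGT75C1 (-0.79) and SAT (-0.67), and 4 earlier genes, 4CL3 (-0.48), TT4, CHIL and UGT89C1. The 3 genes that rose, PAL1, PAL2 and OMT1, all belong to general phenylpropanoid metabolism. Without Humidity replicate 3 the counts were 1 higher and 7 lower. Humidity end-point leaves had the lowest group mean of the 17 groups for 13 of the 29 genes, and Cold-HL end-point leaves the highest for 20. Drought had the highest mean for 4, Heat-drought for 3, Humidity for 1 (PAL3) and Cold-HL recovery for 1 (FLS3). Libraries of the highest and second group overlapped for PAL2, UGT79B1, 3AT2, SAT and TT19 in Cold-HL, and for every gene highest elsewhere. Those of the lowest and next group overlapped for TT4, UGT78D2, UGT89C1 and 3AT1 in Humidity. Shares of all genes with their highest or lowest mean in these groups are not available here.

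Cold-HL and Drought share the control, and each raised the anthocyanin branch, so their own values are given side by side. 4CL3 was at 1.52 in Cold-HL and -0.29 in Drought, where the value as deposited was 0.25, and PAL4 at -0.51 (0.01 as deposited) and 1.10. FLS1 was at 2.12 and 0.13. The median over the 6 flavonol genes was 1.04 in Cold-HL and -0.03 in Drought, over the 10 anthocyanin genes 2.28 and 1.81, and over the 9 general genes -0.07 and 0.66. These medians and the values of FLS1 depend on centring, which took out group medians 0.51 (Cold-HL) and 0.54 (Drought) above control. After centring 18 of 29 genes were called higher in both stresses, against 4.7% of all genes. As deposited, 23 of 29 were higher in both and 0 went in opposite directions, against 44.1% of all genes higher in both.

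Adding light in the cold was examined by setting Cold-HL against Cold, groups that differ in light (200 and 80 µmol m-2 s-1) at the same temperatures. Here 20 of 29 genes were higher in Cold-HL and 0 lower, against 3.31% of all genes that passed. TT7 differed most, by 1.81 ± 0.28 (adjusted p 0.000121), and TT4 by 1.11 among the other early genes, by limma. In the anthocyanin branch 9 of 10 passed, DFR by 1.53 ± 0.30 and 3AT2 by 1.34 ± 0.16. In the flavonol branch UGT78D2 (1.03) and FLS1 (0.69) passed with UGT89C1, and in the general pathway 4CL3 (0.98 ± 0.12), PAL1 (0.78), PAL2 and C4H.

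Light added to heat gave no call over all groups. For Heat-HL against Heat limma called 0 of 29 genes (0.00526% of all genes passed), with 9 at an unadjusted p under 0.05. In Heat-HL leaves TT4 was at 2.14, 2.04 and 2.70, above the 1.62, 1.36 and 1.76 of Heat leaves. Same-numbered libraries of these 2 groups deviated together (correlations 0.30, 0.32 and 0.24), though no label states a pairing. Over all groups, however, the mean correlation of same-numbered libraries was 0.04, and HL recovery with HL end-point had -0.73, -0.37 and -0.41. The blocked fit of Heat-HL and Heat leaves alone was added after seeing the data. It called 8 of 29 genes higher, against 2.46% of all genes: 4CL3, TT4, FLS1, DFR, LDOX, UGT79B1, UGT75C1 and TT19. DFR was 0.75 higher there (adjusted p 0.00238 by limma). Blocked fits of Heat-HL or HL with control leaves alone called 2 higher and 3 lower (6.47% of all genes), and 4 higher and 1 lower (9.53%). For the interaction of heat and high light limma called 0 of 29 genes (0.00526% of all genes passed), 0 also at an unadjusted p under 0.05, and 1 positive in the blocked fit of the 4 groups (2.47%).

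Heat added to drought lowered most of the pathway. In Heat-drought against Drought 2 genes were higher and 20 lower, with 44.2% of all genes passing (20.4% higher, 23.8% lower). The counts were 1 higher and 4 lower of 9 general, 0 and 4 of 4 early, 0 and 3 of 6 flavonol and 1 and 9 of 10 anthocyanin genes. LDOX was at 0.65, -0.30 and -0.50 in Heat-drought leaves against 2.41, 2.20 and 2.43 in Drought leaves, a 5.27-fold difference (-2.40 ± 0.27, adjusted p 7.82e-08 by limma). DFR was at 0.97, 0.37 and 0.30 in Heat-drought leaves against 2.61, 2.38 and 3.01 in Drought leaves (-2.12 ± 0.30). In both genes the groups did not overlap. The Heat-drought libraries of both lay on either side of the control libraries.

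TT7 (-2.13 ± 0.28) and CHIL (-1.14) fell most among the early genes, 4CL3 (-1.50 ± 0.12) and PAL2 (-0.54) among the general ones, where PAL1 (-0.50) and PAL3 (-0.33; -0.13 and not called in the values as deposited) were also lower, and UGT78D1 (-1.18) and FLS1 (-0.56) in the flavonol branch. C4H (0.34) and BGLU10 (0.51) were higher in Heat-drought. A blocked fit of the 2 groups alone ended the calls of UGT78D1 (adjusted p 0.0538) and C4H (adjusted p 0.0531), called PAL4 higher (0.29, adjusted p 0.0458, against 0.0768 without the block) and called 34.7% of all genes. C4H was also lost without Drought replicate 2 (0.18), by limma. The unblocked fit of those groups alone called 0 higher and 9 lower (0.153% of all genes lower).

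The interaction asks whether the difference in Heat-drought departs from the sum of those in Heat and Drought. It was negative for 12 of 29 genes and positive for 0, with 16.2% of all genes passing (7.97% positive, 8.22% negative). The 12 genes were 8 of the 10 anthocyanin genes, TT7 and CHIL among the early genes, UGT78D1 in the flavonol branch and 4CL3 in the general pathway. LDOX had an interaction of -1.96 ± 0.38 (adjusted p 0.000924) and 4CL3 one of -1.31 ± 0.17 (adjusted p 4.5e-06), by limma. TT4 (-0.17) and C4H (0.31) did not pass, with adjusted p of 0.747 and 0.12 by limma. Without Heat-drought replicate 3 the interactions of CHIL (-0.55) and UGT78D1 (-0.69) did not pass, and UGT78D1 was also lost without Drought replicate 2. Without Heat-drought replicate 1 or Drought replicate 3 a positive interaction was called for 2 genes. A fit of the 4 groups alone called 7 negative (0.242% of all genes).

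**Figure D3:**
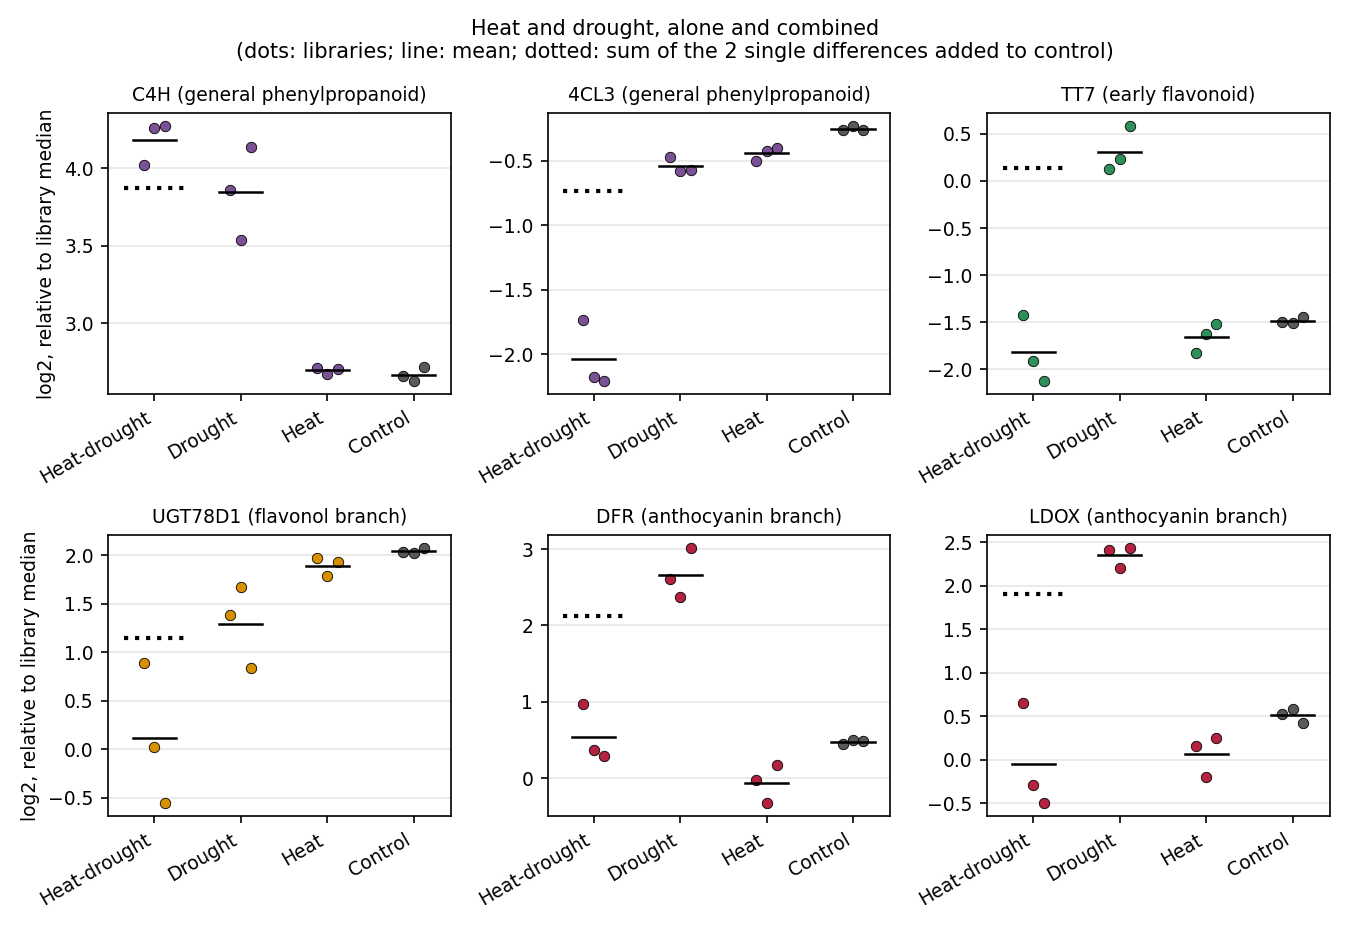
Level relative to the library median (log2 units) of C4H, 4CL3, TT7, UGT78D1, DFR and LDOX in Heat-drought, Drought, Heat and control leaves, where dots are libraries, bars across them are group means and the dotted line is the control mean plus the separate Heat and Drought differences. Heat-drought libraries of 4CL3, TT7, UGT78D1, DFR and LDOX lie below the dotted line.

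After 3 days under standard conditions no gene of the pathway was called against control. For each of the 8 stresses 0 of 29 genes passed in recovery against control, as did 0% of all genes, by limma, and the other normalizations, filters and blocked fits also gave 0. At an unadjusted p under 0.05 there were 9 genes in HL, 5 in Cold-HL, 1 each in Cold, Drought, Heat and Heat-HL, and 0 in Heat-drought and Humidity. Median differences lay between -0.20 (HL) and 0.03 (Heat and Humidity). Leaving out Cold-HL recovery replicate 3 gave 3 genes lower in that group, PAL1 (-0.40), OMT1 (-0.50) and RHM1 (-0.40), while leaving out replicate 2, the library with low leaf markers, gave 0.

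Recovered HL leaves lay lowest. LDOX was at -0.07, -0.44 and -0.44 in HL recovery leaves against 0.52, 0.59 and 0.42 in control leaves, and DFR at 0.07, -0.38 and -0.39 against 0.44, 0.50 and 0.49. TT4 was at 2.05, 1.78 and 1.89 against 2.30, 2.35 and 2.39. For 16 of the 29 genes all 3 HL recovery libraries lay below all controls and for 0 above, while 9.66% of all genes lay below. The largest difference, LDOX at -0.83, did not pass. In Cold recovery 6 of 29 genes lay wholly below the control (3.58% of all genes).

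Setting recovery against the end-point of the same stress compares 2 sets of plants, stressed from day 12 and from day 15, without using the control. The recovered plants were not sampled under stress, so a return of their own levels is inferred. In Cold-HL 3 genes were higher in recovery and 23 lower (59.3% of all genes passed), in Drought 3 and 22 (63.9%), in Cold 2 and 21 (38.1%; 1 higher without Cold end-point replicate 3 or Cold recovery replicate 2 or 3, the call lost being OMT1), in Heat-drought 7 and 13 (78%), in Humidity 14 and 3 (7.55%), in HL 0 and 14 (1.84%) and in Heat 2 and 0 (0.757%). In the values as deposited the splits were 0 and 26 in Cold-HL and 3 and 22 in Heat-drought. The shares of all genes given here are those after centring, which took out end-point group medians 0.51 (Cold-HL) and 0.73 (Heat-drought) above control. In Heat-HL limma called 0 of 29 (0.184%), with 6 at an unadjusted p under 0.05.

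TT4 was at 1.35, 2.23 and 2.30 in Cold-HL recovery leaves against 5.63, 5.26 and 5.68 at the end-point, a difference of -3.56 ± 0.22 (adjusted p 6.65e-15 by limma). DFR was at -0.55, 0.63 and 0.06 in recovery against 3.59, 3.24 and 3.51 at the end-point (-3.40 ± 0.30). TT7 was at -2.18, -0.92 and -1.71 in recovery against 1.72, 0.84 and 1.56 (-2.98). For each of these 3 genes every recovery library lay below every end-point library. Without Cold-HL recovery replicate 2 the counts in that comparison were 2 and 23, 4CL2 (0.34, then 0.25) being the call lost. The difference of DFR between Cold-HL recovery and control was -0.43 with that library and -0.72 without it, and neither passed.

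Genes that were lower at a stress end-point were also higher in recovery. In Humidity recovery leaves DFR was at 0.78, 0.57 and 0.65 against -1.37, -1.28 and -0.85 at the end-point, a rise of 1.83 ± 0.30 (adjusted p 9.41e-05 by limma). TT19 (1.79), LDOX (1.56) and TT4 (1.18) rose with it, and PAL2 (-0.60), PAL1 (-0.54) and OMT1 (-0.50) fell. In Heat-drought recovery leaves 4CL3 was at -0.28, -0.02 and -0.43 against -1.74, -2.18 and -2.21 at the end-point (1.80 ± 0.12), and UGT78D1 was 1.86 higher, while C4H (-1.51), PAL4 (-1.48) and BGLU10 (-1.34) were lower.

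In HL, DFR (-1.60 ± 0.30), LDOX (-1.49) and TT4 (-1.39) were lower in recovery than at the end-point, although DFR and LDOX had not passed at the end-point against control. That count of 14 fell to 4 without HL end-point replicate 3, to 6 and 7 without HL recovery replicates 2 and 3, and to 1 in a blocked fit of the 2 groups alone (0.021% of all genes lower). In Heat, TT4 (0.92) and FLS1 (0.71) were higher in recovery; TT4 did not pass in the values as deposited (0.83) and was lost without any 1 of the Heat end-point libraries or Heat recovery replicate 2 or 3, and FLS1 without Heat recovery replicate 3.

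Of the genes called at the end-point against control, the number also called in the opposite direction between recovery and end-point was 25 of 26 in Cold-HL (90.9% over all genes called at that end-point), 24 of 26 in Drought (85.1%), 21 of 21 in Cold (84.8%), 19 of 20 in Heat-drought (95%), 14 of 14 in Humidity (79.9%), 2 of 2 in HL (49.5%) and 1 of 1 in Heat (48%). The exceptions were OMT1 in Cold-HL, 4CL3 and FLS3 in Drought, and 5MAT in Heat-drought. The end-point libraries stand on both sides of these counts.

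**Figure D4:**
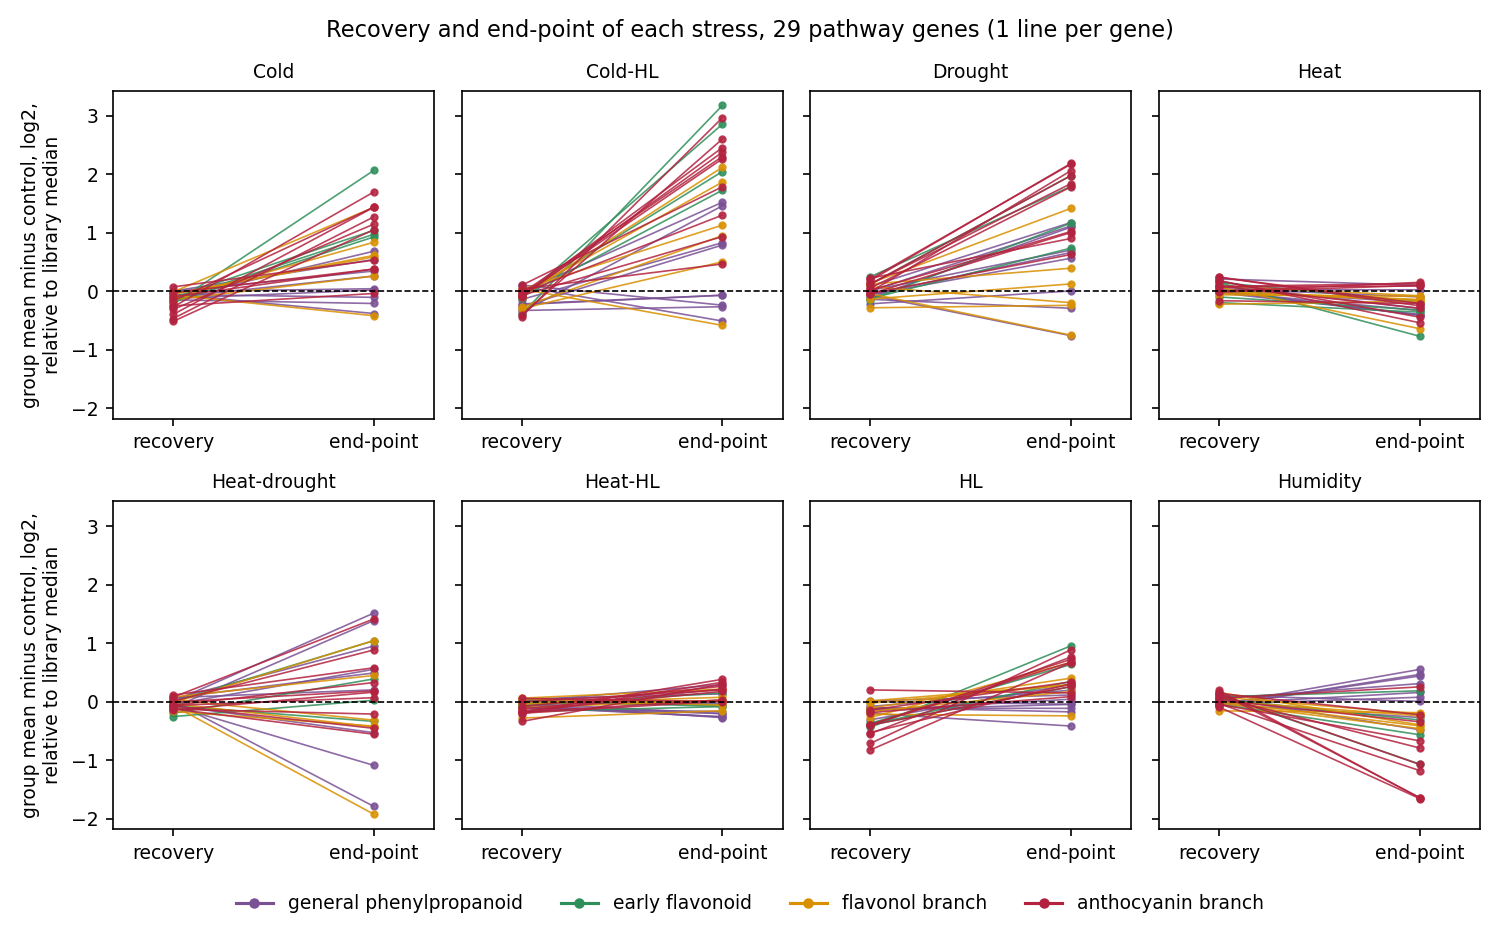
Difference from control in log2 units in recovery (left of each panel) and at the end-point (right) for the 29 genes tested, 1 line per gene coloured by pathway step and 1 panel per stress. Recovery differences lie between -0.83 and 0.25, whereas end-point differences reach 3.18 in Cold-HL.

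The neighbouring parts of the pathway were measured as well. Of 17 regulators 14 were tested. Of these 5 were higher and 4 lower in Cold-HL, 3 and 8 in Drought, 3 and 4 in Cold, 2 and 8 in Heat-drought, 1 and 3 in Humidity and 0 and 1 in HL, each against control. Over all genes 23.3% were higher and 29.4% lower in Cold-HL, 25.3% and 42.2% in Drought and 18.3% and 21.7% in Cold. In Heat-drought these shares were 32.2% and 46.5%, in Humidity 3.58% and 2.31% and in HL 0.405% and 0.689%. The regulators' splits were 10 and 1 in Cold-HL, 7 and 2 in Drought, 6 and 1 in Cold and 8 and 3 in Heat-drought in the values as deposited, the last 3 with the majority turned round, so only members named below with their values are given a direction. MYB75, an activator of anthocyanin genes, was at 1.09, 0.91 and 1.02 in Drought leaves, 0.01, -0.25 and -0.08 in Cold-HL leaves, 0.60, 0.22 and -0.23 in Heat-drought leaves and -2.91, -2.91 and -2.63 in Humidity leaves, against -1.80, -1.95 and -1.82 in control leaves. All of these groups stood clear of the control, Humidity below it. TT8, the bHLH partner, was at -0.75, -0.92 and -0.79 in Cold-HL leaves, -1.22, -1.28 and -1.10 in Drought leaves and -1.53, -1.51 and -1.82 in Cold leaves. It was at -2.44, -2.58 and -3.19 in Heat-drought leaves, against -2.56, -2.30 and -2.53 in control leaves. As deposited, the difference of TT8 was 2.16 in Cold-HL, 1.80 in Drought and 1.18 in Cold. It was then 0.46 in Heat-drought (adjusted p 0.0155) and -0.57 in Humidity (adjusted p 0.0452), both by limma.

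The related activator MYB90 varied most between replicates, at 1.04, -0.61 and 5.63 in Drought leaves and -1.49, -0.32 and -0.25 in Heat-drought leaves, against -3.99, -3.97 and -4.06 in control leaves. In the interaction of heat and drought MYB75 (-1.26) and TT8 (-1.10) were negative and the repressor gene LBD39 (1.38) was positive. MYBL2, a repressor of anthocyanin genes, was lower in Cold-HL (-1.16), Cold (-0.90) and HL (-0.87) and higher in Humidity (0.68), against control. It was also called lower in Drought (-0.78) and Heat-drought (-0.69), but these were -0.25 and 0.04 in the values as deposited, neither called.

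Of 12 genes of lignin and sinapate ester synthesis, 10 were higher and 1 lower in Heat-drought, 7 and 3 in Drought, 5 and 3 in Cold-HL, 3 and 2 in Cold and 1 and 0 in Humidity. CAD5, a cinnamyl alcohol dehydrogenase of lignin synthesis, was 3.06 higher in Heat-drought and 2.29 in Drought. SNG1, which makes sinapoylmalate, was lower in Cold-HL (-1.59). In the values as deposited the counts were 11 and 1, 9 and 1, 8 and 1, 8 and 1 and 1 and 0 in the same order. Of 15 genes supplying phenylalanine 9 were higher and 2 lower in Cold-HL, 6 and 4 in Heat-drought, 4 and 2 in Drought and 3 and 2 in Cold, and as deposited 13 and 0, 13 and 0, 14 and 0 and 12 and 0. For both lists the shares over all genes after centring are those given for the regulators. Among the phenylalanine genes the counts higher in Drought and Cold were near those shares (25.3% and 18.3% of all genes higher). The arogenate dehydratase gene ADT5 was 1.71 higher in Heat-drought and 1.44 in Drought.

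Genes for the Kelch F-box proteins that mark phenylalanine ammonia-lyase for degradation were measured in 3 of 4 cases. KFB20 was lower in Cold-HL (-1.91), Drought (-1.70), Cold (-1.19), Heat-drought (-1.17) and HL (-1.09), and KFB50 was lower in Cold-HL (-0.98) but higher in Heat-drought (1.05). In the values as deposited these kept their signs, and KFB20 in Heat-drought (-0.44) did not pass. The seed coat genes BAN, TT10 and TT12, which belong to proanthocyanidin synthesis, were at rlog -2.12 to -1.38 in all libraries. AHA10, a proton pump gene of the same list, was at 5.22 to 6.38. It was called lower in Cold (-0.32), the list's only call at an end-point. That difference is smaller than the 0.34 taken out of Cold by centring, so its sign depends on centring.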

How the data were processed

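RNA was sequenced from rosette leaves as read pairs. The authors deposited a single file of regularized log2 (rlog) values per gene and library. Per the submitters' processing notes Trimmomatic, STAR, featureCounts, DESeq2 and the TAIR10 build were used, without versions. Counts and totals were not used here, so the depth per library is unknown; the strand setting is not given in the sources used here.

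Of 57 columns, 51 matched the labels of 17 groups of 3; 6 matched no label and were not used, so the planned comparisons of the Heat-drought-HL groups were not run. The test covered the 19010 genes whose mean rlog reached 3 (2657 others were listed at 0 in every library used). Each library was centred on its median over these genes. All groups were fitted together in limma 3.58.1 (R 4.3.3, package data.table, version 1.17.8), with 1 mean per group and trended, robust moderated variances. Tests were two-sided, with Benjamini-Hochberg adjustment over all genes tested and a threshold of 0.05. Figures and tables used Python 3.11.15, pandas 2.3.3, numpy 2.4.6 and matplotlib 3.10.9. The fit was checked on simulated data.

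The 31 genes, the other lists and the tests were chosen with earlier results of these data known. Per comparison and pathway step, the genes named with a difference are the 2 with the largest differences among those that passed and any that went against most of their step; others named with values are given to account for every gene. Values in every library are given for 1 to 3 genes per step with the widest range of group means, and genes beyond these were added after their values were seen. Same-numbered libraries deviated together (every correlation over 0.1) in 5 of 27 pairs of groups. These are Heat, Heat-HL and HL with control, Heat-HL with Heat, and Heat-drought with Drought. Blocked values stand beside those results where they change a call. The pairs were picked by this cutoff on the same data. Over all groups the mean correlation was 0.04 for same-numbered libraries and -0.02 for others, so a pairing is not established.

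Alternatives were no centring, quantile normalization, no filter on low values, plain variances, a replicate block, a fit of the groups compared only, and leaving out each library. The fit of the groups compared only with a replicate block was added after seeing the data. Upstream sequences and gene positions come from RefSeq TAIR10.1.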

Additional observations from a re-analysis of the deposited data

Results flagged for a closer look

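For 12 genes the effect of drought differed between plants kept at 27 °C and plants kept at 22 °C, by limma's test of the interaction with Benjamini-Hochberg adjustment over all genes tested. In each the difference in Heat-drought lay below the sum of the separate differences. The interaction was -1.96 for LDOX, -1.96 for TT7, -1.79 for UGT79B1, -1.65 for UGT75C1, -1.58 for DFR and -1.31 for TT19. It was -1.31 for 4CL3, -1.25 for 5MAT, -1.20 for 3AT1, -1.03 for UGT78D1, -0.83 for 3AT2 and -0.79 for CHIL. Adjusted p ran between 4.5e-06 (4CL3) and 0.0149 (CHIL). The leaf marker sum was 9.15 to 9.96 in Heat-drought, 9.95 to 10.66 in Drought and 11.45 to 11.50 in control leaves, and its part in these values was not tested.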

How the results depend on the processing

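Of 135 results on single genes, 116 kept direction and call in the values as deposited, 130 under quantile normalization, 132 with no filter on low values, 135 with plain variances, 135 with a replicate block, and 119 in fits of the groups compared only, with or without the block; of the lowest and highest values with 1 library left out at a time, 242 kept direction and call and 28 lost the call. In the values as deposited 8 reversed: PAL4 (0.0074) and OMT1 (0.25) in Cold-HL, 4CL3 (0.25) in Drought, PAL2 (0.21) and 5MAT (0.28) in Heat-drought, each against control, and OMT1 (-0.014) in Cold, 4CL2 (-0.15) in Cold-HL and PAL2 (-0.25) in Heat-drought between recovery and end-point.

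Counts that moved by over 1.5 times are these. As deposited, end-point counts lower were 0 in Cold, Cold-HL, Drought and Heat and 3 in Heat-drought, and higher 21 in Heat-drought and 9 in HL. Recovery against end-point then had 0 higher in Cold and Cold-HL, 1 in Drought, 1 in Heat and 3 in Heat-drought, and 22 lower in Heat-drought and 1 in Heat-HL, and the interaction of heat and drought 1 positive. Under quantile normalization 1 was lower in Cold and 3 in Heat, 1 (Cold) and 4 (Heat) were higher in recovery against end-point, and 1 was higher in Heat-HL against Heat. With no filter 1 was higher in Heat recovery against end-point. The replicate block gave 2 lower in Heat and 4 higher in Heat recovery against end-point, and changed no other count by over 1.5 times. Fits of the groups compared only gave 9 lower in Heat, 2 in Heat-HL and 1 in HL against control. In recovery against end-point they gave 7 higher in Heat and 3 lower in HL. They also gave 0 higher and 9 lower in Heat-drought against Drought, and 7 negative interactions. With the replicate block added they gave 11 lower in Heat, 2 higher and 3 lower in Heat-HL and 4 higher and 1 lower in HL against control. In recovery against end-point these blocked fits gave 6 higher in Heat and 1 lower in HL. They also gave 1 lower in Cold-HL against Cold, 8 higher in Heat-HL against Heat and 1 positive interaction of heat and HL. Beyond the construction of each setting the cause was not tested.

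With 1 library left out, counts ranged 2 to 3 lower in Drought, 0 to 1 lower in Heat, 0 to 2 higher in HL, 1 to 4 higher and 7 to 11 lower in Humidity, 0 to 3 lower in Cold-HL recovery against control, 1 to 2 higher in Cold and 0 to 2 higher in Heat recovery against end-point, 4 to 14 lower in HL recovery against end-point, 1 to 3 higher in Heat-drought against Drought and 0 to 2 positive interactions of heat and drought. The depth is unknown, so no limit from counting can be given; with 3 libraries a group and 1 shared control the precision is that of the spread between libraries.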
